A study of Mus musculus with 10 samples.

Results

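Collagen chain genes encode the polypeptides that make up the collagens, the main structural proteins of the extracellular matrix. They were taken as the protein-coding genes whose symbol is Col, a number, the letter a and a number, after the transcripts of the deposited table had been joined to GENCODE vM21. This gave 44 genes of the 27876 genes in the table, and the annotation holds no collagen gene of that name pattern beyond these 44. Each gene was represented by its most abundant transcript, meaning the one with the highest mean level in reads, not scaled to transcript length. For Col16a1 and Col19a1 that transcript is not annotated as protein-coding. RNA was sequenced from whole kidneys taken on day 14, from 5 wild-type mice that drank water with 0.5 g/L quinolinic acid and from 5 wild-type mice given vehicle. Quinolinic acid is a product of tryptophan breakdown by the kynurenine pathway. The strain, sex and age of the mice, and whether kidney injury had been induced in them, are not given in the sources used here.

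Each collagen chain carries long stretches of repeats in which glycine recurs at regular steps, and chains wind around each other into stiff helices. Fibrillar collagens (types I, III and V in most soft tissues) form the fibres of the interstitium, and their deposition is the hallmark of kidney fibrosis. Type IV collagen is different: it assembles into a flexible network that underlies every epithelium and endothelium, and in the glomerulus a specialised network of the Col4a3, Col4a4 and Col4a5 chains is part of the filtration barrier. Loss of any of those chains causes Alport syndrome in humans. The remaining types attach to fibrils, anchor basement membranes, span the cell membrane or form fine filaments around cells.

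All values come from the authors' deposited table of a finished comparison, which gives for each transcript 1 log2 fold change between the groups, 1 mean level over the libraries in CPM (read counts scaled to library size) and 1 likelihood-ratio test. Values of single mice were not analysed here, so no value per sample and no spread between mice can be shown, and the depth of the libraries is unknown. Since nothing in the file states which group stands on top of the ratio, a positive sign may mean more RNA in either group, and signs are given as deposited. Errors are approximate 95% intervals derived from the fold change and its test statistic. In whole tissue, fewer cells of a type and less RNA per cell cannot be told apart. The kidney tubule markers Slc34a1, the phosphate transporter of the proximal tubule, and Umod, uromodulin of the thick ascending limb, stood at 1430 CPM and 1274 CPM in the authors' deposited table.

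No collagen gene passed the test for a difference between mice given quinolinic acid and mice given vehicle. In the authors' deposited table none of the 44 genes had an adjusted p under 0.05 by edgeR's likelihood-ratio test, where 0.0215% of all genes did (6 of 27876). The smallest adjusted p of a collagen gene was 0.782. At an unadjusted p under 0.05 the count was 1 of 44 collagen genes, the cartilage collagen gene Col2a1, beside 5.12% of all genes. None of the 27 collagen genes with a level of at least 1 CPM was among these, where 4.09% of all genes of that level were. A level of at least 1 CPM was reached by 27 collagen genes (61.4%, against 47.0% of all genes), and the following account rests on these. All 27 had a deposited log2 fold change within 0.5 of 0, and 21 lay within 0.2. The approximate interval held 0 in all 27, and in none did it reach a 2-fold difference between the groups. For 20 of the 27 it stayed under 1.5-fold. The narrowest bound, 1.20-fold, belonged to Col4a5 and the widest, 1.88-fold, to Col8a1.

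By sign, the collagen genes were mixed. Of the 44, 24 had a positive and 20 a negative deposited log2 fold change, with a median of 0.03, beside a median of 0.04 over all 27876 genes. Among those of at least 1 CPM, 15 were positive and 12 negative, again with a median of 0.03. The median over all 13115 genes of that level was 0.08, and 28.2% of them had a negative sign, against 44.4% of the collagen genes. Within the range of transcript length of these collagen genes, 7260 coding genes of that level had a median of 0.03, with 40.5% negative. The plot of fold changes with their intervals shows these 27 genes by class.

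**Figure D1:**
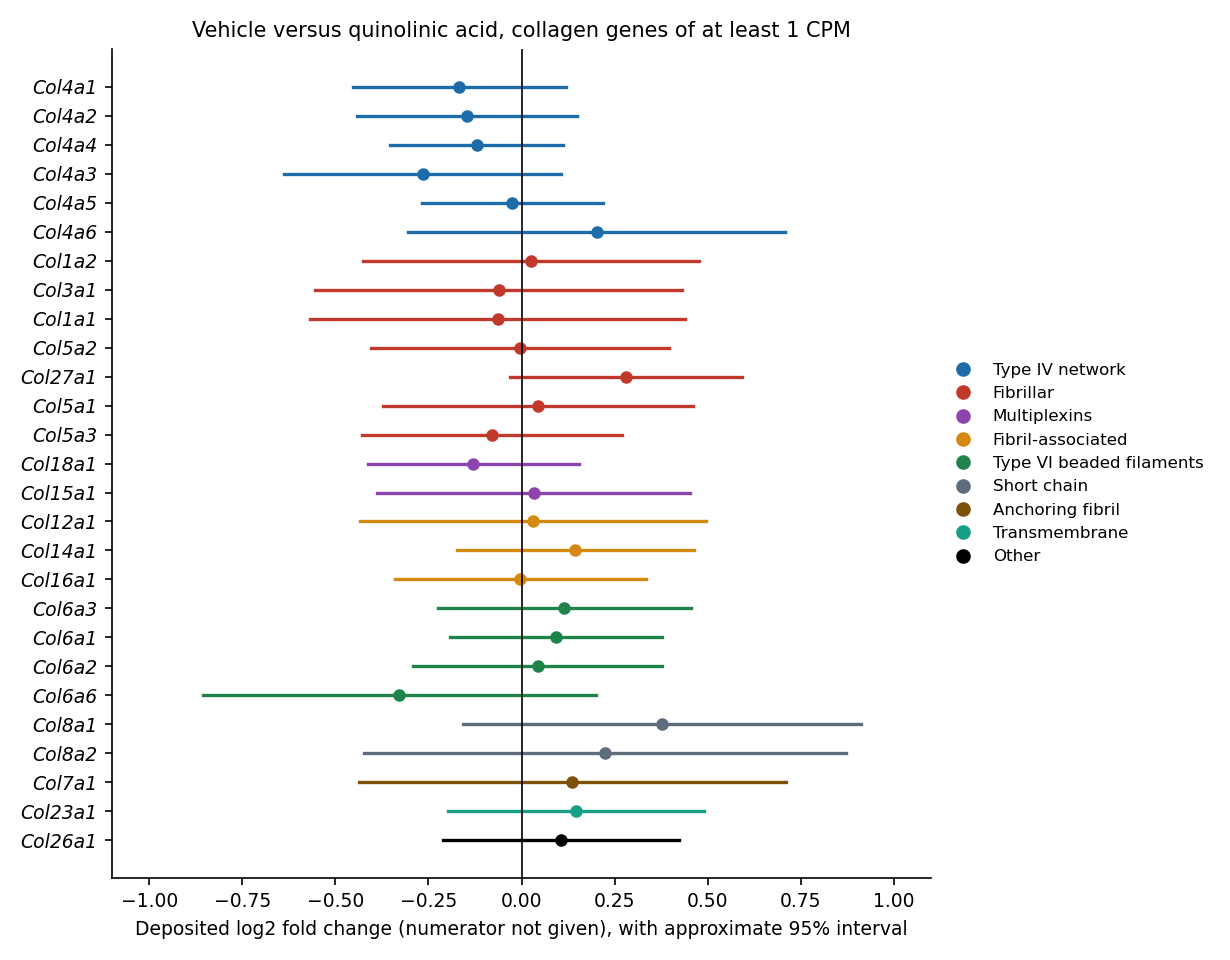
Deposited log2 fold change of the 27 collagen genes of at least 1 CPM (horizontal axis; which group is on top is not given), with approximate 95% intervals as bars and 1 row per gene, grouped and coloured by collagen class and ordered by level within a class. Every interval crosses 0, and 5 of the 6 type IV genes lie to the left of it. Of coding genes of at least 1 CPM with transcripts of 6000 to 8000 nt, 66.2% had a negative sign.

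Levels differed far more between collagen genes than between the groups of mice. Levels are compared here per kb of transcript, since long transcripts collect more reads. Reads were not spread evenly along every transcript, though. A Col15a1 transcript of 1755 nt at the 3' end had 54.0 CPM, beside 57.1 CPM for the one of 5172 nt used here. For Col4a3 a transcript of 627 nt near the 3' end had 4.41 CPM, beside 59.4 CPM for the one of 8554 nt. It stops short of the gene's end, so it does not sample the same place as that of Col15a1. All values, shares and ratios per kb or per length carry this limit. Mean CPM per kb, computed from the authors' deposited table, was 36.9 for Col1a2 and 17.7 for Col1a1, the chains of type I collagen, and 31.8 for Col3a1, the chain of type III. It was 19.4 for Col18a1 and 19.04 for Col4a1. Col4a2 followed at 15.0 and Col15a1 at 11.0. At the other end of the genes of at least 1 CPM stood Col6a6 at 0.153 CPM per kb, so the range within the family exceeded 2 orders of magnitude. Summed over the chains, the fibrillar class made up 48.6% of the collagen CPM per kb, type IV 26.2% and the multiplexins Col15a1 and Col18a1, which carry sugar chains and sit in basement membrane zones, 15.2%. The fibril-associated class held 3.91% and type VI 3.69%.

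**Figure D2:**
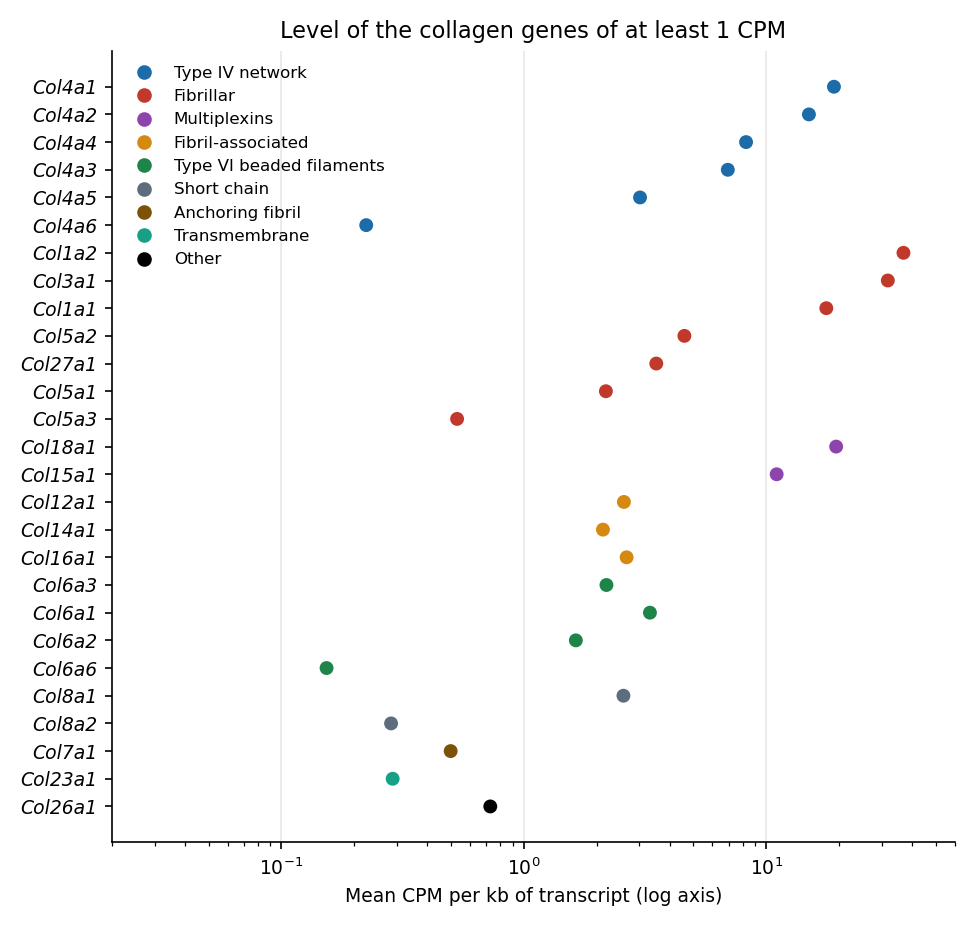
Mean level of the 27 collagen genes of at least 1 CPM, in CPM per kb of transcript on a log axis, as the mean over all 10 libraries, coloured by class and ordered by CPM within a class. Col1a2 and Col3a1 stand highest at 36.9 and 31.8, and Col6a6 lowest at 0.153.

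Type IV collagen genes had small fold changes, most of them with a negative sign. Their median transcript length was 6631.5 nt. Between 6000 and 8000 nt, 66.2% of coding genes of at least 1 CPM had a negative sign too. The type IV genes sit in head-to-head pairs, each pair read outward from a short stretch of shared DNA. Col4a1 (chromosome 8, 11198423 to 11312826, minus strand, GRCm38) and Col4a2 (chromosome 8, 11312805 to 11449287, plus strand) encode the chains found in nearly all basement membranes. In the annotated transcripts used here their first bases lay 21 nt apart, and the transcripts overlapped by 22 nt. Col4a4 and Col4a3 on chromosome 1 started 127 nt apart, and Col4a6 and Col4a5 on the X chromosome 1309 nt apart. The promoter windows of the first pair and of Col4a4 are shown because the members of these pairs are compared next, and that of Col1a2 for contrast, as the fibrillar chain of highest level. They run from 250 bases before to 50 after the RefSeq start (GRCm38.p6), 5′ to 3′ on the strand of the gene, with each CCAAT or its reverse complement ATTGG in capitals, a pentamer known as the core of the NF-Y binding site.
Col4a1, chr8:11312777-11313076, minus strand: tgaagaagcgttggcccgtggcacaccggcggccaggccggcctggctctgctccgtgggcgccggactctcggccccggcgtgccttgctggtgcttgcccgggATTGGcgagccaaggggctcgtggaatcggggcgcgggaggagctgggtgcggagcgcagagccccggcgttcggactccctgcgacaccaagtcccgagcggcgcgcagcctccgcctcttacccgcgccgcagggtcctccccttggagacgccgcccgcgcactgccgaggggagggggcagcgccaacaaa
Col4a2, chr8:11312555-11312854, plus strand: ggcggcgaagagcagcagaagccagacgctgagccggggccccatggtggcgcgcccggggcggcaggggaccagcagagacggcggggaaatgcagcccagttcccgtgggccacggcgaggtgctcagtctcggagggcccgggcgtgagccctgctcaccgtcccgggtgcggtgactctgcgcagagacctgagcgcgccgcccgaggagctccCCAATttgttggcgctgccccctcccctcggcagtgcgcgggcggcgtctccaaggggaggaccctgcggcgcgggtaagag
Col4a4, chr1:82586800-82587099, minus strand: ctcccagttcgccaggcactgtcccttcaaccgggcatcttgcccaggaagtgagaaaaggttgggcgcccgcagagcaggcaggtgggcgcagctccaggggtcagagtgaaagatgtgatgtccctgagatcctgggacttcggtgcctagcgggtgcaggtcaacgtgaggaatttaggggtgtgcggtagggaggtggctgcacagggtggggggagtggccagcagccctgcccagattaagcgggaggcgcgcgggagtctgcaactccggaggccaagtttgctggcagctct
Col1a2, chr6:4505368-4505667, plus strand: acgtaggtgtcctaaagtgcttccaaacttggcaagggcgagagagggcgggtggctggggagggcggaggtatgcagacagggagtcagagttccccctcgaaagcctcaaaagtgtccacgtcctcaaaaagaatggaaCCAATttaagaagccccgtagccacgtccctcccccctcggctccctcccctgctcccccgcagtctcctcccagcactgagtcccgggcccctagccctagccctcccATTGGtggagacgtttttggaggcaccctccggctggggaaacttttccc
The Col4a1 and Col4a2 windows share 78 bases of the same DNA, read from opposite strands. Each of them holds 1 match, that of Col1a2 holds 2 and that of Col4a4 holds 0. The 2 motif spellings are reverse complements and were searched on both strands without overlap. A match was found in 13 of 38 windows of 35 collagen genes (34.2%) and in 37.4% of all 32851 windows of the RefSeq table, so the share among collagen genes was close to that of promoters in general. A match describes the letters of the window and not a bound site.

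Of the first pair, Col4a1 had a deposited log2 fold change of -0.17 (95% interval -0.45 to 0.12, 126 CPM) and Col4a2 one of -0.15 (-0.44 to 0.15, 96.8 CPM) in the authors' deposited table. The members of this pair therefore differed by 0.02 on the log2 scale. Col4a4 stood at -0.12 (-0.35 to 0.11, 83.5 CPM) and Col4a3 at -0.27 (-0.64 to 0.11, 59.4 CPM) in the authors' deposited table, 0.15 apart. Unlike these, the X-linked pair straddled 0, with 0.20 (-0.31 to 0.71, 1.49 CPM) for Col4a6 and -0.02 (-0.27 to 0.22, 19.7 CPM) for Col4a5 in the authors' deposited table. Every one of these 6 intervals held 0 and the smallest p, that of Col4a3, was 0.162 (adjusted p 0.794) in the authors' deposited table. Reads of Col4a3 are partly uncertain, since 563 nt of its transcript (6.58%) overlap exons of C430014B12Rik on the other strand and the sources used here do not give the strand setting. Per length, Col4a1 stood 2.74-fold above Col4a3 and 6.31-fold above Col4a5. Col4a5, the chain shared by both specialised networks, stood 13.5-fold above Col4a6, and Col4a3 2.30-fold above Col4a5.

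Fibrillar collagens of the interstitium stayed close to 0. The authors' deposited table gives Col1a1 (chromosome 11, 94936224 to 94953042) a value of -0.06 (95% interval -0.57 to 0.44, 105 CPM) on the log2 scale. Its partner in type I collagen, Col1a2 (chromosome 6, 4504814 to 4541544), had one of 0.03 (-0.43 to 0.48, 197 CPM), and Col3a1 (chromosome 1, 45311538 to 45349706), whose fibrils mix with those of type I, one of -0.06 (-0.56 to 0.43, 177 CPM) in the authors' deposited table. For these 3 genes the deposited p lay at 0.803 or above. The intervals allow up to 1.48-fold for Col1a1, 1.39-fold for Col1a2 and 1.47-fold for Col3a1. Per length the Col1a2 transcript stood 2.08-fold above Col1a1, while type I collagen itself holds more of the Col1a1 chain.

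Type V chains, which nucleate type I fibrils and limit their width, were as flat. The authors' deposited table gives log2 fold changes of 0.04 (-0.37 to 0.46, 18.3 CPM) for Col5a1, -0.00 (-0.40 to 0.40, 30.5 CPM) for Col5a2 and -0.08 (-0.43 to 0.27, 3.25 CPM) for Col5a3. Col27a1, a fibrillar chain best known from cartilage and developing skeleton, had the smallest p of any collagen gene of at least 1 CPM. The authors' deposited table gives it 0.28 (-0.03 to 0.59, 26.8 CPM; p = 0.0787, adjusted p 0.794). Among the 7 fibrillar genes of this level 3 were positive and 4 negative.

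Type VI collagen, the beaded microfilament around cells, is built from Col6a1, Col6a2 and one more chain, usually Col6a3. By the authors' deposited table their log2 fold changes were 0.09 (-0.19 to 0.38, 13.6 CPM), 0.04 (-0.29 to 0.38, 6.47 CPM) and 0.11 (-0.22 to 0.45, 19.7 CPM), so the chains of the molecule stood within each other's intervals. Col6a6, which can take the place of Col6a3, had the most negative value of the genes of at least 1 CPM, -0.33 (-0.86 to 0.20, 1.35 CPM) in the authors' deposited table. The related Col6a5 and Col6a4 were scarce, with 0.19 at 0.366 CPM and 0.06 at 0.354 CPM in the authors' deposited table. Per length, Col6a1 stood 2.02-fold above Col6a2 and 1.51-fold above Col6a3.

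Multiplexins lay on either side of 0. Col18a1, whose C-terminal fragment is endostatin, had a log2 fold change of -0.13 (-0.41 to 0.15, 109 CPM) and Col15a1 one of 0.03 (-0.39 to 0.45, 57.1 CPM) in the authors' deposited table. Among the fibril-associated collagens, which decorate the surface of fibrils, Col12a1 stood at 0.03 (-0.43 to 0.49, 29.8 CPM), Col14a1 at 0.14 (-0.17 to 0.46, 13.7 CPM) and Col16a1 at -0.00 (-0.34 to 0.33, 13.6 CPM) in the authors' deposited table. Type VIII collagen forms lattices such as that below the corneal endothelium, and neither of its genes passed the test. In the authors' deposited table Col8a1 had the highest log2 fold change of the genes of at least 1 CPM, 0.38 (-0.16 to 0.91, 13.2 CPM, p = 0.167), and Col8a2 stood at 0.22 (-0.42 to 0.87, 1.23 CPM, p = 0.498). Col7a1, which anchors the skin's basement membrane to the dermis, stood at 0.14 (-0.44 to 0.71, 4.59 CPM), the transmembrane collagen gene Col23a1 at 0.15 (-0.20 to 0.49, 1.63 CPM) and Col26a1 at 0.11 (-0.21 to 0.42, 1.98 CPM) in the authors' deposited table.

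The 17 collagen genes under 1 CPM, among them the chains of cartilage types II, IX and X, ran from 0.0241 to 0.926 CPM, with 9 positive and 8 negative signs and a median log2 fold change of 0.02 in the authors' deposited table. Col2a1, the main collagen of cartilage, stood at 3.17 on the log2 scale, with 0.0363 CPM, by the authors' deposited table (95% interval 0.58 to 5.76, p = 0.0166, adjusted p 0.782). Its interval spans more than 5 log2 units at this low level. Col10a1 of hypertrophic cartilage (-1.39, 0.549 CPM, p = 0.242) and Col22a1 of tissue junctions (-1.36, 0.135 CPM, p = 0.0835) had the most negative values in the authors' deposited table. These 2 genes are named only for those values. The intervals of the 17 genes held 0 in 16, Col2a1 being the exception.

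Collagen transcripts are long, and the deposited fold change goes with transcript length across the whole table. Spearman's rho between length and log2 fold change was -0.53 over the 12632 coding genes that reached 1 CPM and -0.22 over the 27 collagen genes, a description across genes that share their libraries. The collagen genes of at least 1 CPM had a median transcript length of 6450 nt, against 3096 nt for those coding genes. Collagen genes are therefore set beside coding genes of like length, without a test of the difference. Between 4000 and 6000 nt the median log2 fold change was 0.03 for 10 collagen genes and 0.02 for 2670 coding genes, and between 6000 and 8000 nt it was -0.01 for 8 collagen genes and -0.04 for 995 coding genes. From 8000 to 12000 nt the 7 collagen genes had a median of 0.03, with 42.9% negative, and the 516 coding genes one of -0.07, with 70.9% negative. After subtraction of a smooth trend on length and level, the 27 collagen genes had a median of 0.02, with 17 positive and 10 negative, and none had an adjusted p under 0.05. Only Col27a1 (0.32) then passed 0.05 without adjustment, and its adjusted p, with the error taken from edgeR's test, was 1.00. Of the coding genes, 239 of 12632 did so. With GC content in the trend as well, 0 of 27 collagen genes did, and 13 were positive and 14 negative. Among the type IV genes, with length and level alone in the trend, Col4a1 and Col4a2 stood at -0.15 and -0.13. Col4a4 and Col4a3 then stood at -0.04 and -0.21. With GC content added, Col4a1 and Col4a2 stood at -0.18 and -0.18, and Col4a4 and Col4a3 at -0.05 and -0.21.

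**Figure D3:**
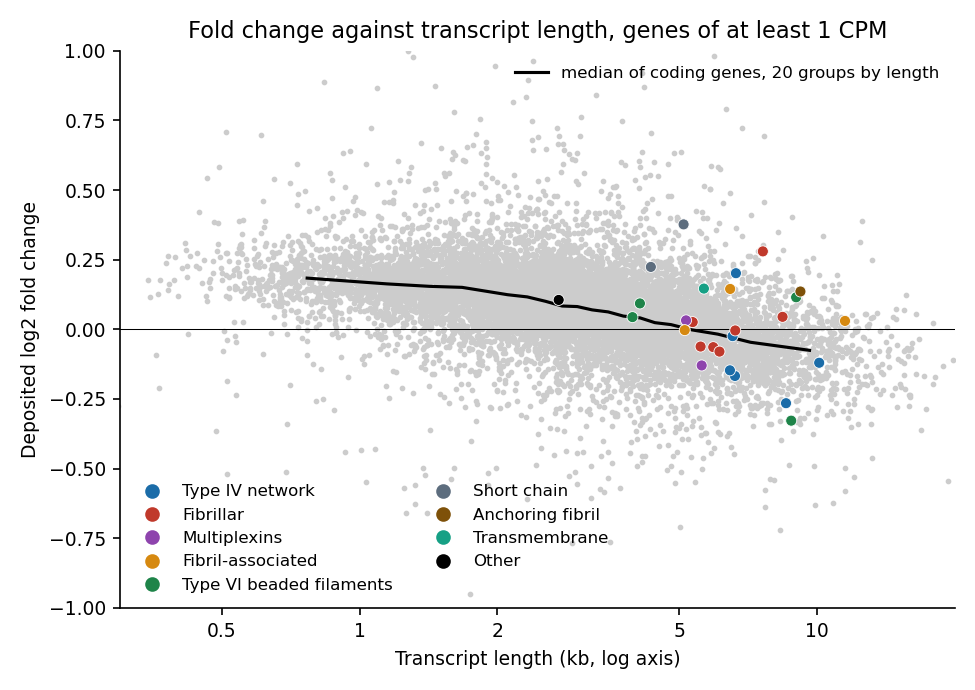
Deposited log2 fold change (vertical axis) against transcript length in kb (log axis) for coding genes of at least 1 CPM in grey, with the collagen genes coloured by class; the line joins the medians of 20 groups of coding genes by length. Of the coding genes 37 fall outside the axes, and the collagen genes scatter around the line at its long end.

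Errors differed between collagen genes of like level, and no test compared the classes. The approximate standard error was above the median of coding genes of like level, within a factor of 2 in CPM, for 22 of the 27 genes, and above their 75th percentile for 19. For the interstitial genes it was 0.26 for Col1a1, 0.25 for Col3a1 and 0.23 for Col1a2 on the log2 scale, at percentiles 94.97, 92.0 and 84.2 of coding genes of their level. Col12a1 at 0.24 and Col8a1 at 0.27 stood at percentiles 97.8 and 98.6. Among the type IV genes, Col4a1 and Col4a2 had errors of 0.15 at percentiles 39.6 and 54.9, Col4a5 one of 0.12 at 53.0, and Col4a4 the lowest of all 27, 0.12 at percentile 13.1. The other type IV genes stood higher, Col4a3 with 0.19 at percentile 88.0 and Col4a6 with 0.26 at 78.0. The other classes were split as well, with Col18a1 at percentile 42.2 and Col15a1 at 93.4 among the multiplexins, and the fibrillar Col5a3 at 59.96. The error comes from the authors' model of all libraries, so a wide error shows larger scatter around the group means without saying which mice scattered.

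**Figure D4:**
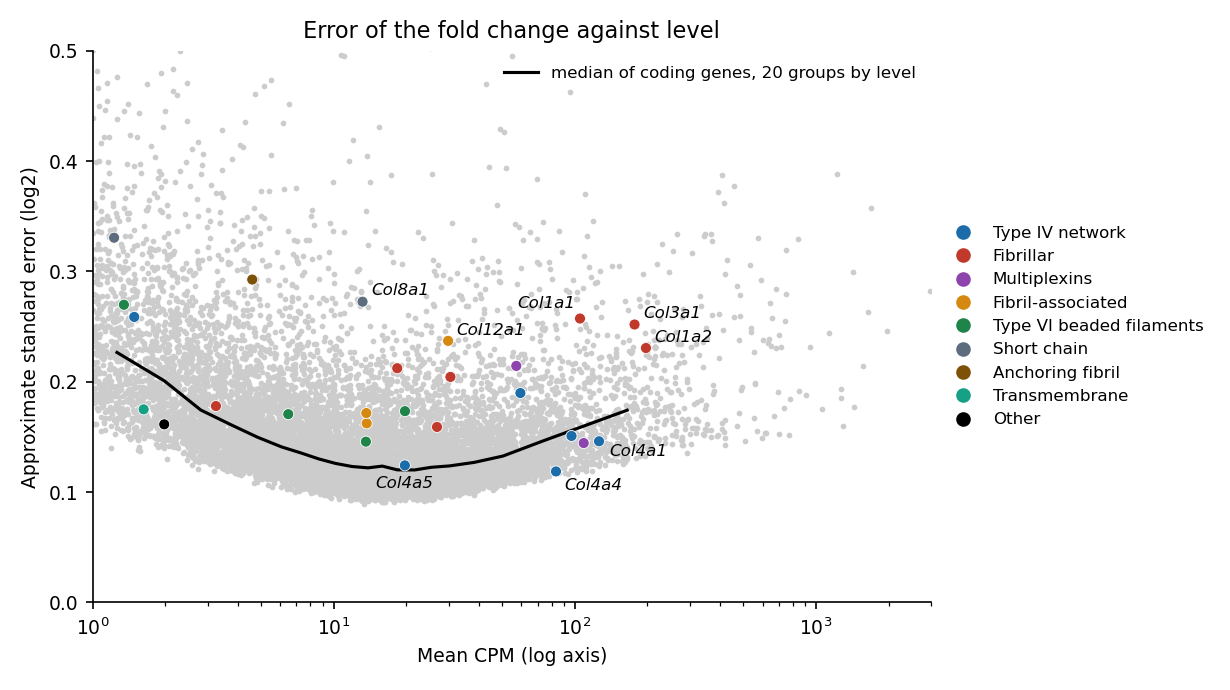
Approximate standard error of the log2 fold change (vertical axis) against mean CPM (log axis) for coding genes of at least 1 CPM in grey, with the collagen genes coloured by class and some named; the line joins the medians of 20 groups of coding genes by level. Of the coding genes 53 fall outside the axes; Col1a1, Col3a1 and Col1a2 lie above the line, while Col4a1, Col4a4 and Col4a5 lie near or below it.

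The table holds 193 transcripts of the 44 genes, from 1 to 13 per gene, and transcripts of a gene share reads. None had an adjusted p under 0.05 in the authors' deposited table, where 0.0141% of all transcripts did. At an unadjusted p under 0.05 there were 13 of 193 transcripts, beside 6.08% of all transcripts, and 10 of these 13 were measured under 1 CPM. At or above 1 CPM the share was 3 of 75, beside 4.65% of all transcripts of that level. The smallest p was that of a short transcript near the 3' end of Col27a1, with a log2 fold change of 0.46 (0.13 to 0.79, 7.71 CPM, p = 0.00708, adjusted p 0.677) in the authors' deposited table. At or above 1 CPM the other 2 were a short 3' transcript of Col4a3 (-0.52, 4.41 CPM, p = 0.0336) and a Col4a2 transcript that retains an intron (-0.48, 2.02 CPM, p = 0.0356), each with adjusted p 0.794 in the authors' deposited table.

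Within a gene, the fold change shifted with the place of a partial transcript, a pattern examined after these values had been seen. Partial transcripts were those covering under 50% of the gene's span and measured at 0.1 CPM or more, in genes of at least 1 CPM. In the 5' part of the gene lay the midpoints of 19 collagen transcripts from 10 genes. Of these, 16 had a lower log2 fold change than the gene's most abundant transcript, with a median difference of -0.30. Only 2 of the 19 reached 1 CPM, and they were lower. For 45 transcripts from 21 genes in the 3' part the count was 29 lower and 16 higher, with a median difference of -0.08. Of the 45, 26 reached 1 CPM, with 13 lower and 13 higher. Over all coding genes, 8359 of 9466 transcripts in the 5' part were lower, with a median difference of -0.19, and 7821 of 12592 in the 3' part, with one of -0.04. The pattern of the collagen genes is therefore shared with coding genes at large. Some of the partial transcripts of 1 CPM or more had their midpoint in the last 10% of the gene. Of these, 6 of 9 collagen transcripts stood higher than the gene's most abundant transcript, against 67.1% of 2328 coding transcripts. The authors' deposited table gives these 6 transcripts log2 fold changes of 0.24 for Col12a1, 0.23 for Col15a1, 0.38 for Col16a1, 0.46 for Col27a1, 0.25 for Col5a1 and 0.28 for Col6a3. Those of Col4a2 (-0.29) and Col4a3 (-0.52 and -0.47) stood lower than the gene's most abundant transcript in the authors' deposited table. The places are not alike, however. The transcripts of Col12a1, Col15a1 and Col16a1 ended at or next to the gene's 3' end. Those of Col4a2, Col4a3, Col5a1, Col6a3 and Col27a1 stopped further from it.

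**Figure D5:**
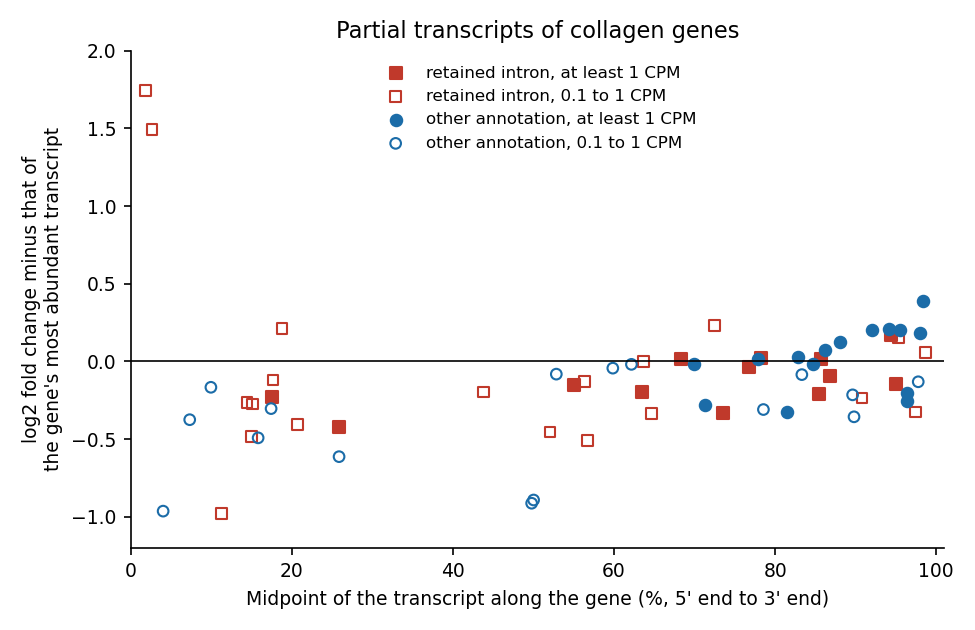
Difference in deposited log2 fold change between a partial transcript and its gene's most abundant transcript (vertical axis) against the midpoint of the partial transcript along the gene in percent from the 5' to the 3' end, for 64 transcripts of collagen genes of at least 1 CPM. Squares retain an intron, circles have another annotation, and filled marks reach 1 CPM. In the 5' part 16 of 19 marks lie under 0, and only 2 of the 19 are filled.

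No gene for modifying, folding or exporting collagen chains passed the test either. Of the 19 listed, 14 were positive and 5 negative, and the median log2 fold change was 0.10 in the authors' deposited table. The 2 with the smallest p, among those reaching 1 CPM, were the lysyl hydroxylase and glycosyltransferase gene Plod3 (0.17, p = 0.0730) and the prolyl 3-hydroxylase family gene P3h3 (0.23, p = 0.125), with 0.794 after adjustment for each in the authors' deposited table. Among the 13 genes of procollagen cleavage and crosslinking, 8 were positive, 4 negative and 1 at 0, with a median of 0.10. Of those reaching 1 CPM, Pcolce, the enhancer of C-propeptide cleavage (0.20, p = 0.147), and the lysyl oxidase relative Loxl1 (0.18, p = 0.335) had the smallest p in the authors' deposited table. The 14 genes of collagen breakdown and its inhibitors had a median of 0.02. Of those reaching 1 CPM, the matrix metalloproteinase genes Mmp13 (0.23, p = 0.359) and Mmp15 (0.17, p = 0.453) had the smallest p in the authors' deposited table. Among these lists no gene passed over all transcripts by edgeR's likelihood-ratio test, and the unadjusted p was under 0.05 for 0 of 19, 1 of 13 and 1 of 14, beside 5.12% of all genes. The 2 were Adamts14, a procollagen N-propeptidase gene (0.43, 0.862 CPM, p = 0.0387), and Mmp16 (0.91, 0.137 CPM, p = 0.0214) in the authors' deposited table, both under 1 CPM.

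No receptor gene of collagen passed the test, and all 9 intervals held 0. Of the 9 measured, 2 were positive and 7 negative, with a median log2 fold change of -0.09 in the authors' deposited table. Over all genes 33.5% were negative. The 9 had a median transcript length of 4969 nt, however. Among coding genes of at least 1 CPM, 44.0% were negative between 4000 and 6000 nt, and 66.2% between 6000 and 8000 nt. The collagen receptor kinase gene Ddr2 (-0.23, -0.56 to 0.10, p = 0.167) and the integrin gene Itga10 (-0.34, -0.84 to 0.16, p = 0.182) had the smallest p of those at 1 CPM or more, with 0.794 after adjustment for each in the authors' deposited table. The 20 matrix partners, among them laminins, nidogens and small proteoglycans, had 15 positive signs and a median of 0.06. Decorin, Dcn, which binds fibrils (0.25, -0.08 to 0.58, p = 0.143), and the laminin gene Lama1 (-0.21, -0.50 to 0.08, p = 0.154) led them in the authors' deposited table. Among the 13 genes of TGF-beta signalling and its targets, a main driver of collagen transcription, 9 were positive, with a median of 0.10. The connective tissue growth factor gene Ccn2 (0.32, -0.07 to 0.71, p = 0.109) and Tgfb1 (0.25, -0.10 to 0.60, p = 0.167) had the smallest p in the authors' deposited table. No gene of these 3 lists had an unadjusted p under 0.05.

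Markers of the cells that make collagens showed no called difference. The 4 fibroblast markers split into 2 positive and 2 negative signs, and their CPM summed to 110. The authors' deposited table gives 0.25 for Dcn (41.1 CPM) and 0.35 for Lum (1.86 CPM). It gives -0.05 for Pdgfra (22.4 CPM) and -0.02 for Pdgfrb (44.4 CPM). Dcn, Lum and Postn are also among the matrix partners. Of 4 myofibroblast markers 3 were positive, including smooth muscle actin Acta2 (0.12) and periostin Postn (0.05) in the authors' deposited table. Tagln was the negative one (-0.02, 42.9 CPM). Podocytes make the Col4a3, Col4a4 and Col4a5 network, and all 5 podocyte markers were positive, with a median of 0.10 and with 0.31 for nephrin, Nphs1, and 0.17 for Wt1 in the authors' deposited table, while those 3 chains had negative signs. The 6 endothelial markers were positive as well, with a median of 0.19, led by Emcn (0.25) and Plvap (0.25) in the authors' deposited table. Adipocyte markers, 4 of 4 positive with a median of 4.16 and 4 of 4 with an unadjusted p under 0.05, summed to only 1.77 CPM. The most abundant of them was Cfd, the adipsin gene (3.77 at 1.43 CPM, adjusted p 0.112), in the authors' deposited table. Adipoq had the smallest adjusted p of the 4 by edgeR's likelihood-ratio test (4.55 at 0.216 CPM, adjusted p 0.0748). What part these cell types had in the collagen values was not tested.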

How the data were processed

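RNA was measured in whole kidneys on day 14, in 5 mice given quinolinic acid and 5 given vehicle, and samples were grouped by those labels. The authors worked on mm10 with edgeR, featureCounts (Subread 1.4.6), STAR 2.5.3a and FastQC 0.11.2, per the submitters' processing notes. Strand setting, annotation release, read depths and filters are not given in the sources used here. The values, per the file headers, are the authors' log2 fold change, mean log2 CPM, likelihood-ratio score on 1 degree of freedom, p-value and adjusted p, deposited for 85107 transcripts. The deposited p-value matched the chi-square tail of the score, and the adjusted p the Benjamini-Hochberg value over all transcripts.

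Transcripts were joined by ID without version to GENCODE vM21 (GRCm38), where 98.0% matched, and each gene symbol was represented by its transcript of highest mean CPM. The standard error was approximated by dividing the size of the log2 fold change by the root of the score. It has no term for single mice. Trends were removed by additive lowess (span 0.5) on log2 length and level, which was checked on simulated data. Coding genes within a factor of 2 in CPM gave the like-level comparison. Replicates are separate mice only as far as the labels number them.

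The members, gene lists and tests were chosen with earlier results of these data known. Every collagen gene at or above 1 CPM was to be named, those below it if p was under 0.05 or if they were partners of a named chain, and of each other list the 2 genes of smallest p that reached 1 CPM. The tubule markers Slc34a1 and Umod were named as a tissue check, and transcripts below gene level after their values were seen. The markers Pdgfra, Pdgfrb, Tagln and Adipoq were also named after their values were seen. The tubule list of 4 markers had a median log2 fold change of 0.18. No list was tested as a set, and 1 marker list is not reported here. Python 3.11.15, numpy 2.4.6, pandas 2.3.3, scipy 1.17.1, statsmodels 0.14.6 and matplotlib 3.10.9 were used.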

Additional observations from a re-analysis of the deposited data

How the results depend on the processing

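No paired analysis was possible because the deposited table gives no values per library, and for the same reason no replicate could be left out. The count of called collagen genes was 0 at an adjusted p under 0.1 and under 0.2, with the adjustment over 1 transcript per gene or over genes of at least 0.1 or 1 CPM, with the coding, the longest coding or the smallest-p transcript, and with the length and level trend removed. At an unadjusted p under 0.05 it was 1. The median log2 fold change ranged from -0.05, with the median of all genes of at least 1 CPM (0.08) subtracted, to 0.03. The number of genes with a negative sign was 20 of 44, 27 of 44 after that subtraction, 12 of the 27 of at least 1 CPM and 10 of these 27 with the length and level trend removed, but 14 of these 27 with GC content also in the trend. Signs turned for Col5a2 (0.0224) and Col4a5 (8.44e-05) with that trend removed, for Col5a2 (0.02), Col1a2 (-0.0017), Col6a2 (-0.04) and Col26a1 (-0.03) with GC also in it, for Col6a3 (-0.0703) and Col6a2 (-0.12) with the longest coding transcript, and for Col16a1 (0.0012) with either coding transcript; all of these genes were uncalled under each of these. For 28 genes followed singly, no call was gained. Depth is unknown, so how far it limits the 17 genes under 1 CPM cannot be given beyond their intervals.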
